A study of Homo sapiens with 18 samples.

Results

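The 10 genes described here encode the on and off switch of the pyruvate dehydrogenase complex and the complex itself: 4 kinases (PDK1, PDK2, PDK3 and PDK4), 2 catalytic phosphatases (PDP1 and PDP2) and 4 subunits (PDHA1, PDHB, PDHX and DLAT). They were taken by name, and all 10 were found among the 23106 genes counted. The complex lies in the mitochondrial matrix and converts pyruvate to acetyl-CoA, with PDHA1 and PDHB as the decarboxylating component, DLAT as the acetyltransferase core and PDHX as the protein that ties the dehydrogenase DLD to that core. The kinases phosphorylate PDHA1 and switch the complex off, the phosphatases reverse this, and PDK1 is a long-known target of the hypoxia-inducible factors (HIF).

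PolyA+ RNA from 3 human cell lines was sequenced in normoxia and after hypoxia, which gave 18 samples in 6 groups of 3. The expression data accompanied maps of HIF binding to chromatin and were collected to see which genes respond to hypoxia in each line. HKC-8 is a kidney line labelled as proximal tubule, HepG2 is a liver cancer line, and RCC4 is a kidney cancer line that lost VHL, the protein that marks HIF for destruction in normoxia. All RCC4 cells used here, normoxic and hypoxic, carried a stable wild-type VHL transgene. Hypoxic HepG2 cells were labelled 0.5% oxygen for 16 h. Hypoxic HKC-8 cells carried the same annotation, but their sample titles state 0.1% oxygen, and the titles of the normoxic ones 21%. Hypoxic RCC4 cells were labelled 1.0% oxygen for 24 h, whereas the text of the study names the HepG2 condition for every line. Cell line, oxygen level, duration and VHL transgene therefore cannot be told apart where the hypoxic response of RCC4 is compared with that of another line. Between normoxic cells the same holds for the RCC4 line and its transgene. Between the responses of HepG2 and HKC-8 the oxygen level cannot be told apart from the line either, if the HKC-8 titles are right. The titles of all 6 RCC4 samples call them replacements. HKC-8 libraries were the deepest, with total counts of 75441764 to 97984260, against 42045335 to 51794355 for RCC4 and 40915980 to 48355303 for HepG2. Replicates were not stated to be separate cultures, so the p-values measure the spread between these samples, which may be technical.

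Levels are given as CPM, read counts scaled to a common library size, after TMM normalisation over the 18 samples, as mean ± SD of 3 samples. Differences are log2 fold changes from edgeR's quasi-likelihood test with their standard error (SE), and a gene was called at a Benjamini-Hochberg adjusted p under 0.05 over all genes tested. Levels of the 10 genes are compared with each other per kb of annotated exon, unless division by length is said to be left out.

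The labels were first compared with marker genes. All 8 hepatocyte markers exceeded 1 CPM in HepG2 and summed to between 33510 and 34890 CPM in normoxia, led by ALB. In HKC-8 the same markers summed to at most 0.552 CPM, and in RCC4 to at most 11.2 CPM, nearly all of it SERPINA1. Of 5 kidney lineage markers, 3 exceeded 1 CPM in HKC-8, led by PAX8 at 165 CPM in normoxia. All 5 did so in RCC4, and 3 did so in HepG2, where the list summed to at most 34.3 CPM. Of 7 proximal tubule markers, however, only ANPEP exceeded 1 CPM in HKC-8, at 2.82 CPM in normoxia, and the list summed to between 2.12 and 4.65 CPM there. The same list summed higher in RCC4, to between 142.8 and 177.6 CPM, most of it GGT1 (166.3 CPM in normoxia). It summed highest in HepG2, the liver line, to between 289.5 and 332.5 CPM, most of it ANPEP (263.5 CPM in normoxia). In normoxia GGT1 (29.9 CPM in HepG2) and AQP1 (3.92 against 0.0149 CPM) were higher in RCC4 than in HepG2. So were SLC34A1 (0.987 against 0.0159 CPM), LRP2 (0.667 against 0.144 CPM) and SLC5A2 (0.55 against 0.384 CPM). ANPEP (0.492 CPM in RCC4) and CUBN (0.0198 against 0.273 CPM) were lower. These markers did not bear out the proximal tubule label, but their sums, carried by GGT1 and ANPEP, did not follow the tissue of origin either. The line is called HKC-8 throughout. Markers of leukocytes, endothelium and fibroblasts summed to between 1.86 and 12.7 CPM over the 18 samples, with COL1A1 highest in every group. The hypoxia labels were checked on 10 well-known hypoxia genes. All that could be tested were higher in hypoxia, 10 of 10 in HKC-8, 8 of 8 in RCC4 and 10 of 10 in HepG2, with CA9 and EGLN3 too low to test in RCC4. Their median log2 fold changes were 2.14, 3.03 and 3.09.

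PDK1, the kinase best known for its hypoxic induction (chr2:173420101-173473397, plus strand, GRCh37), was higher in hypoxia in every line. In HKC-8 it stood at 38.1, 29.5 and 34.4 CPM in the normoxic samples and at 151, 139 and 178 CPM in the hypoxic ones. RCC4 gave 34.1, 30.7 and 34.4 CPM in normoxia and 192, 214 and 182 CPM in hypoxia. HepG2 gave 22.3, 21.7 and 22.1 CPM in normoxia and 225, 217 and 186 CPM in hypoxia. All 9 hypoxic samples lay above all 9 normoxic ones, so the groups did not overlap in any line. The log2 fold change was 2.20 in HKC-8 (SE 0.123, edgeR adjusted p = 9.65e-06), a 4.60-fold rise. It was 2.57 in RCC4 (SE 0.0551, edgeR adjusted p = 4.74e-21), a 5.95-fold rise, and 3.25 in HepG2 (SE 0.0792, edgeR adjusted p = 3.49e-12), a 9.51-fold rise. By log2 fold change PDK1 ranked 129 of 13536 genes tested in HKC-8, 26 of 12811 in RCC4 and 70 of 13623 in HepG2. In bulk RNA, fewer expressing cells and less RNA per cell cannot be told apart, here and for every gene below.

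PDK1 was next compared between lines, first in normoxia and then in its response. Mean normoxic levels were 22.0 ± 0.321 CPM for HepG2, 34.0 ± 4.30 CPM for HKC-8 and 33.1 ± 2.07 CPM for RCC4. HepG2 lay below HKC-8 by a log2 difference of -0.60 (SE 0.108, edgeR adjusted p = 0.000226) and RCC4 lay above HepG2 by 0.61 (SE 0.0721, edgeR adjusted p = 2.5e-06). HKC-8 and RCC4, neighbours in that order, did not differ beyond their spread (log2 difference -0.03, SE 0.101, edgeR adjusted p = 0.777). Hypoxic means were 209 ± 20.9 CPM for HepG2, 156 ± 19.8 CPM for HKC-8 and 196 ± 16.1 CPM for RCC4, with overlapping samples of HepG2 and RCC4 and all HKC-8 samples below them. Hypoxic levels were not tested between lines, but the responses were. The response of HepG2 exceeded that of HKC-8 by 1.05 on the log2 scale (SE 0.152, edgeR adjusted p = 0.000454), and that of RCC4 was below that of HepG2 by a log2 difference of -0.69 (SE 0.105, edgeR adjusted p = 9.55e-05). RCC4 against HKC-8 gave 0.35 (SE 0.152, edgeR adjusted p = 0.14). It was called with the replicate block, which paired samples by number in both lines (0.35, edgeR adjusted p = 0.029). It was also called without HKC-8 hypoxia replicate 3 (0.47, edgeR adjusted p = 0.0295).

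**Figure D1:**
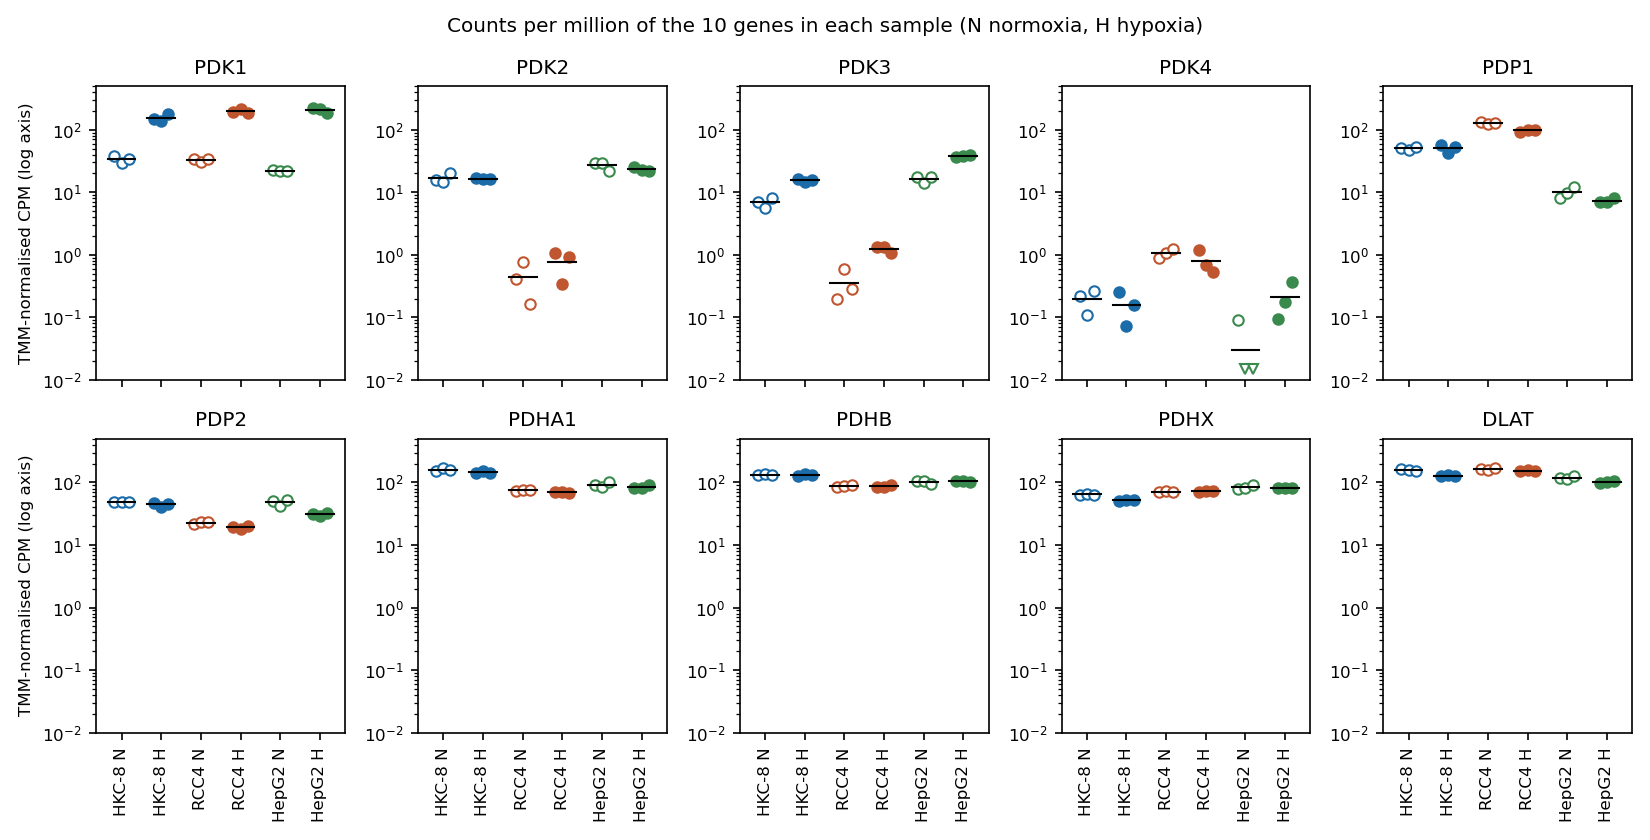
TMM-normalised CPM on a log axis for each of the 10 genes in each of the 18 samples, with open points for normoxia (N), filled points for hypoxia (H), bars for means and triangles for samples with 0 counts. Hypoxic PDK1 points lie at 139 CPM or above in every line, while PDK2, PDK3 and PDK4 lie near or below 1 CPM in RCC4.

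The letters of the HIF recognition core were searched in the 250 bases before each annotated start, because 2 of the kinases moved together. RefSeq promoters (GRCh38.p14) were found for 9 of the 10 genes, in 13 windows, PDP1 being absent. The motifs were ACGTG and GCGTG on both strands. The E-box CACGTG reads ACGTG on both strands and gives 2 matches. Of 35116 promoter windows, 43.2% held ACGTG or GCGTG and 18.5% held ACGTG, so a match is common. The 3 stretches below were chosen after the expression values were seen, and capitals mark the matches, which read CACGT where ACGTG lies on the other strand. PDK1 and PDK3 are shown as the kinases that rose, and PDP2 as a phosphatase that fell in RCC4 and HepG2 and holds the same letters.
PDK1: ccctgctgcccgcCACGTccctCACGTacc
PDK3: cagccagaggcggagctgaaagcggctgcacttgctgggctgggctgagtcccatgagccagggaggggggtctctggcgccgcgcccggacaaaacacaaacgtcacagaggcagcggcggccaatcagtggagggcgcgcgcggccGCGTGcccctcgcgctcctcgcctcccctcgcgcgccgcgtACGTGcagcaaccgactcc
PDP2: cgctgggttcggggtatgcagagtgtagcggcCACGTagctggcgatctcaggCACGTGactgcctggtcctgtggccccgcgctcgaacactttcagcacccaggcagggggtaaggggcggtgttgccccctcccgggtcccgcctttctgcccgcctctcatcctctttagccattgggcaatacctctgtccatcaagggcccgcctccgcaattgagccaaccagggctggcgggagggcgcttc

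The PDK1 stretch is chr2:172556060-172556089 (plus strand), the 30 bases next to the downstream of 2 annotated starts, and lies in an annotated exon of another transcript. Its matches begin 17 and 8 bases before the start, while the window of the other PDK1 start held none. The PDK3 stretch is chrX:24465036-24465243 (plus strand), with matches beginning 102 and 61 bases before the start and no annotated exon in it. The PDP2 stretch is chr16:66880265-66880514 (plus strand), also outside annotated exons, with matches beginning 218, 197 and 196 bases before the start. PDHB, which was not called in any line, held 6 matches, the most of the 13 windows. DLAT held 3, PDHA1 3, PDK2 3 in 1 of its 3 windows and PDHX 2 in 1 of its 2, and PDK4 held none. A match shows only that the letters are present, and binding was not measured here.

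PDK2, the kinase of widest tissue distribution (chr17:48172101-48189516, plus strand, GRCh37), did not pass the test in any line. HKC-8 samples read 15.7, 14.5 and 19.96 CPM in normoxia and 16.6, 16.2 and 16.6 CPM in hypoxia, and HepG2 samples 29.5, 29.3 and 22.3 CPM against 25.7, 22.7 and 21.8 CPM. Normoxic and hypoxic samples overlapped in both. The log2 fold changes were -0.02 in HKC-8 (SE 0.13, edgeR adjusted p = 0.929) and -0.21 in HepG2 (SE 0.109, edgeR adjusted p = 0.15). HepG2 normoxia replicate 3, the low one of its group, decided the latter, which was called without it (log2 fold change -0.34, edgeR adjusted p = 0.0042). RCC4 held hardly any PDK2, with 21, 38 and 7 counts in normoxia and 52, 17 and 45 counts in hypoxia. At such low counts its log2 fold change of 0.78 (SE 0.446, edgeR adjusted p = 0.152) was not distinguishable from the spread. It was called without RCC4 normoxia replicate 2 (1.39, edgeR adjusted p = 0.0416) and without RCC4 hypoxia replicate 2 (1.15, edgeR adjusted p = 0.039), but was as low as 0.42 without RCC4 normoxia replicate 3. Without the same libraries the response of RCC4 also differed from that of HepG2, by 1.58 (edgeR adjusted p = 0.0324) and 1.33 (edgeR adjusted p = 0.0217), where all samples gave 0.97 (edgeR adjusted p = 0.127) and leaving out RCC4 normoxia replicate 3 gave 0.62. Between normoxic lines the order was HepG2, HKC-8, RCC4. HepG2 exceeded HKC-8 by 0.71 on the log2 scale (SE 0.147, edgeR adjusted p = 7e-04), and RCC4 lay below HKC-8 by a log2 difference of -5.19 (SE 0.329, edgeR adjusted p = 2.47e-07). The latter ran from -5.79 without RCC4 normoxia replicate 2 to -4.82 without RCC4 normoxia replicate 3.

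PDK3, a kinase expressed in few tissues (chrX:24483361-24568583, plus strand, GRCh37), was the other gene higher in hypoxia in each line. It read 6.99, 5.57 and 8.04 CPM in normoxic HKC-8 and 16.1, 14.7 and 15.6 CPM in hypoxic HKC-8. In HepG2 it read 17.3, 13.9 and 17.4 CPM in normoxia and 36.8, 38.2 and 39.4 CPM in hypoxia. In RCC4 it was close to the limit of the data, with 10, 30 and 12 counts in normoxia and 64, 66 and 51 counts in hypoxia. The groups did not overlap in any line. The log2 fold change was 1.17 in HKC-8 (SE 0.146, edgeR adjusted p = 0.00118), 1.77 in RCC4 (SE 0.357, edgeR adjusted p = 0.000243) and 1.24 in HepG2 (SE 0.0875, edgeR adjusted p = 1.54e-07). The RCC4 value ran from 1.46 without normoxia replicate 1 to 2.37 without normoxia replicate 2. No pair of lines differed in this response, the differences being 0.07 for HepG2 minus HKC-8 (SE 0.176, edgeR adjusted p = 0.884), 0.58 for RCC4 minus HKC-8 (SE 0.364, edgeR adjusted p = 0.323) and 0.52 for RCC4 minus HepG2 (SE 0.3, edgeR adjusted p = 0.241). Single libraries moved both RCC4 differences either way. They were called without RCC4 normoxia replicate 2, at 1.20 (edgeR adjusted p = 0.0371) and 1.13 (edgeR adjusted p = 0.0169), and were 0.28 and 0.21 without RCC4 normoxia replicate 1. Normoxic levels again ran HepG2, HKC-8, RCC4, with HepG2 1.26 above HKC-8 on the log2 scale (SE 0.159, edgeR adjusted p = 1.17e-05) and RCC4 below HKC-8 by a log2 difference of -4.24 (SE 0.328, edgeR adjusted p = 1.06e-06). The latter ran from -4.84 without RCC4 normoxia replicate 2 to -3.93 without RCC4 normoxia replicate 1.

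PDK4, the kinase known for its induction by fasting and lipids (chr7:95212811-95225828, minus strand, GRCh37), was near the floor everywhere. HKC-8 gave 18, 9 and 24 counts in normoxia and 20, 7 and 13 counts in hypoxia. RCC4 gave 45, 54 and 52 counts in normoxia and 58, 34 and 26 counts in hypoxia, with overlapping groups. HepG2 gave 4, 0 and 0 counts in normoxia and 4, 8 and 14 counts in hypoxia, too few to pass the low-count filter. Without that filter, and in 1 fit of all 18 samples, PDK4 was tested in HepG2 and was called, with log2 fold changes of 2.65 (edgeR adjusted p = 0.0453) and 2.68 (edgeR adjusted p = 0.0347) that depend on the prior count of the fit. The 0 counts allow up to 0.0684 and 0.0723 CPM of the raw library total, without TMM normalisation, taking 3 counts as the floor, a limit that covers counting error only. Neither tested line was called, with log2 fold changes of -0.33 in HKC-8 (SE 0.54, edgeR adjusted p = 0.707) and -0.39 in RCC4 (SE 0.31, edgeR adjusted p = 0.318). Leaving out 1 library at a time moved them between -0.80 and 0.05 in HKC-8, and from -0.78 without hypoxia replicate 1 to -0.17 without hypoxia replicate 3 in RCC4. RCC4 held the highest normoxic level, 1.06 ± 0.164 CPM, which exceeded that of HKC-8, 0.197 ± 0.0783 CPM, by 2.41 on the log2 scale (SE 0.366, edgeR adjusted p = 0.000154).

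Per kb of exon, the 4 kinases were mixed differently in each line. PDK1 made up 43.6, 39.8 and 35.7% of the summed kinase CPM per kb in normoxic HKC-8, 89.1, 83.5 and 88.1% in normoxic RCC4 and 19.02, 19.2 and 22.7% in normoxic HepG2. In hypoxia these shares were 71.7, 71.1 and 75.1% in HKC-8, 96.02, 98.04 and 97.2% in RCC4 and 69.0, 69.7 and 66.4% in HepG2. The normoxic and hypoxic samples of a line did not overlap in this share. PDK2 held most of the rest in HKC-8 and HepG2, going from 52.8 ± 3.78% to 20.97 ± 1.75% of the sum in HKC-8 and from 66.9 ± 4.27% to 20.8 ± 0.883% in HepG2. Without division by length, PDK2 had 8.82% and PDK3 8.28% in hypoxic HKC-8, and in hypoxic HepG2 PDK3 held more of the rest, at 14.15% against 8.63% for PDK2. The share of PDK3 per kb was 6.77 ± 0.356% and 6.17 ± 0.477% in HKC-8, and 12.7 ± 2.37% and 10.7 ± 1.23% in HepG2, in normoxia and hypoxia. Its direction depended on the length used, since the longest coding transcript gave 6.74 and 7.09% in HKC-8 and 11.8 and 12.1% in HepG2. PDK4 had 9.10 ± 1.36% in normoxic and 1.31 ± 0.567% in hypoxic RCC4, which without division by length became 3.04% and 0.406%. These shares were not tested. In normoxic HKC-8 PDK2 led with both lengths tried, at 62.2% against 30.4% for PDK1 with the longest coding transcript. The exons of PDK1 sum to 14845 bases and those of PDK2 to 5471, and without division by length PDK1 led there, with 58.9% against 29.0%. The gene lengths used for the deposited counts are not given in the sources used here.

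**Figure D2:**
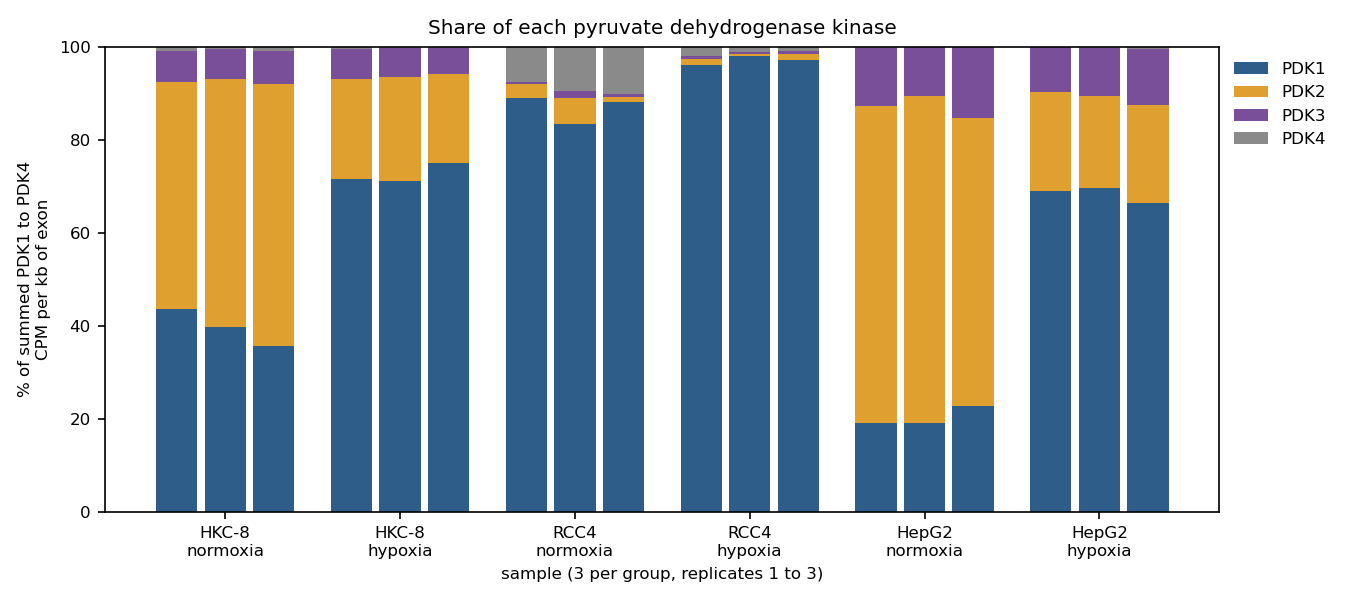
Share of PDK1 to PDK4 in their summed CPM per kb of exon (%), as 1 stacked bar per sample and 3 bars per group. The PDK1 share is larger in each hypoxic sample than in the normoxic samples of the same line, with means of 39.7 and 72.6% in HKC-8, 86.9 and 97.1% in RCC4 and 20.3 and 68.4% in HepG2.

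PDP1, the calcium-stimulated phosphatase (chr8:94870035-94938296, plus strand, GRCh37), was lower in hypoxia in RCC4 and HepG2. RCC4 fell from 134, 126 and 129 CPM to 93.4, 97.5 and 101 CPM, with no overlap (log2 fold change -0.41, SE 0.0398, edgeR adjusted p = 1.16e-08). HepG2 held less, at 8.20, 9.65 and 12.3 CPM in normoxia and 7, 6.88 and 8.12 CPM in hypoxia. Its groups lay close without overlapping, and its log2 fold change was -0.46 (SE 0.141, edgeR adjusted p = 0.0212). That call was lost without HepG2 normoxia replicate 3, the highest sample (-0.29, edgeR adjusted p = 0.076), and without hypoxia replicate 1 (-0.42, edgeR adjusted p = 0.0696) or 2 (-0.41, edgeR adjusted p = 0.0826). HKC-8 read 51.8, 46.8 and 53.1 CPM in normoxia and 57.1, 43.2 and 52.1 CPM in hypoxia, which overlapped (log2 fold change 0.01, SE 0.11, edgeR adjusted p = 0.954). The response of RCC4 differed from that of HKC-8 by -0.44 on the log2 scale (SE 0.127, edgeR adjusted p = 0.0332), a call lost under 11 of 18 alternatives. These were the fits without any of the 6 RCC4 libraries, without HKC-8 normoxia replicate 1 or 2 or HKC-8 hypoxia replicate 1 or 3 (edgeR adjusted p from 0.0529 to 0.0823) and 1 fit of all 18 samples (0.0652). HepG2 minus HKC-8 gave -0.46 (SE 0.194, edgeR adjusted p = 0.157), called only with the replicate block (-0.44, edgeR adjusted p = 0.0194).

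PDP2, the phosphatase that does not need calcium (chr16:66912492-66929657, plus strand, GRCh37), was also lower in hypoxia in RCC4 and HepG2. HepG2 samples read 49.6, 41.5 and 52.8 CPM in normoxia and 31.2, 29.5 and 32.7 CPM in hypoxia. RCC4 samples read 21.8, 23.1 and 23.0 CPM in normoxia and 19.3, 18.2 and 20.5 CPM in hypoxia. Neither pair of groups overlapped. The log2 fold change was -0.62 in HepG2 (SE 0.0849, edgeR adjusted p = 7.94e-05) and -0.22 in RCC4 (SE 0.0639, edgeR adjusted p = 0.00615), the latter lost in 1 fit of all 18 samples (-0.23, edgeR adjusted p = 0.0674). In HKC-8, PDP2 moved from 48.7 ± 0.373 to 44.6 ± 3.66 CPM and was not called (log2 fold change -0.12, SE 0.0842, edgeR adjusted p = 0.332). HepG2 responded more strongly than RCC4, by a log2 difference of 0.39 for RCC4 minus HepG2 (SE 0.11, edgeR adjusted p = 0.014). Against HKC-8 the difference was -0.50 (SE 0.13, edgeR adjusted p = 0.026), a call lost in 7 of 18 alternatives. These were the fits without HKC-8 normoxia replicate 1 or 2, HKC-8 hypoxia replicate 1, HepG2 normoxia replicate 1 or 3 or HepG2 hypoxia replicate 1 or 2, with edgeR adjusted p from 0.0507 to 0.0724.

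Each phosphatase was then compared between the normoxic lines. PDP1 was highest in RCC4 (130 ± 4.12 CPM), lower in HKC-8 (50.5 ± 3.31 CPM) and lowest in HepG2 (10.1 ± 2.07 CPM). RCC4 exceeded HKC-8 by 1.36 on the log2 scale (SE 0.0684, edgeR adjusted p = 4.53e-08) and HepG2 by 3.71 (SE 0.108, edgeR adjusted p = 7.22e-13). PDP2 was lowest in RCC4 (22.6 ± 0.729 CPM) and did not differ beyond the spread between HepG2 (47.96 ± 5.81 CPM) and HKC-8 (48.7 ± 0.373 CPM; log2 difference 0.0014, SE 0.0958, edgeR adjusted p = 0.99).

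Summed per kb of exon, kinases over phosphatases gave 0.387, 0.351 and 0.421 in the normoxic HKC-8 samples and 0.885, 1.04 and 1.07 in the hypoxic ones. RCC4 gave 0.0974, 0.0982 and 0.102 in normoxia and 0.707, 0.749 and 0.618 in hypoxia. HepG2 gave 1.05, 1.12 and 0.760 in normoxia and 4.36, 4.36 and 3.47 in hypoxia. The ratio was thus higher in every hypoxic sample than in the normoxic samples of its line, and lowest in normoxic RCC4. Normoxic RCC4 combined the lowest kinase sum with the highest phosphatase sum of the normoxic lines. The kinase sum carried most of the rise with hypoxia within each line. In RCC4 it went from 2.56 ± 0.0796 to 13.6 ± 1.03 CPM per kb, while the phosphatase sum went from 25.9 ± 0.654 to 19.7 ± 0.712 CPM per kb. In HepG2 the kinase sum went from 7.35 ± 0.71 to 20.6 ± 1.62 CPM per kb and the phosphatase sum from 7.63 ± 0.928 to 5.10 ± 0.31 CPM per kb. In HKC-8 the sums were 5.78 ± 0.752 and 14.4 ± 1.39 CPM per kb for the kinases, and 14.9 ± 0.625 and 14.5 ± 1.71 CPM per kb for the phosphatases. The higher ratio in every hypoxic sample, and the lowest in normoxic RCC4, held with the longest coding transcript and without division by length, alternatives chosen after seeing the data. The size of the ratio did not hold, since without division by length its means were 0.581 and 1.98 in HKC-8, 0.23 and 1.71 in RCC4, and 1.14 and 7.08 in HepG2, in normoxia and hypoxia. These are ratios of transcripts and say nothing of protein or of phosphorylation, which were not measured.

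**Figure D3:**
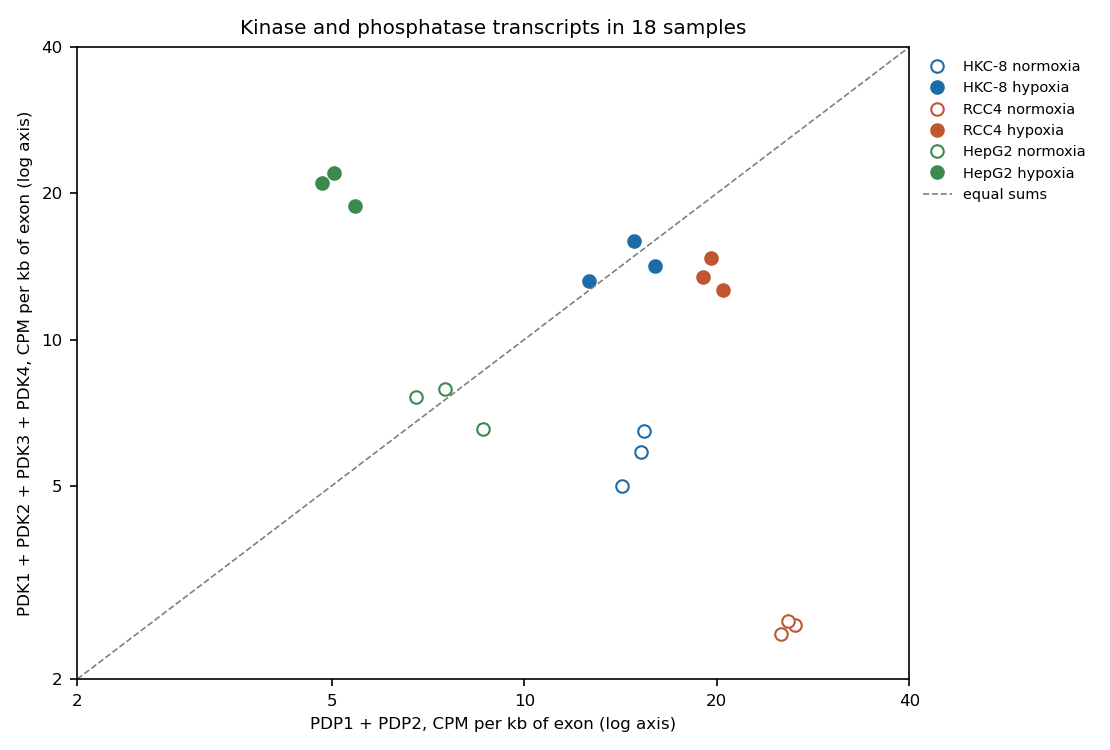
Summed kinase against summed phosphatase transcripts, both in CPM per kb of exon on log axes, with 1 point per sample, open for normoxia and filled for hypoxia. The dashed line marks equal sums. Mean ratios are 4.06 in hypoxic HepG2, 1.00 in hypoxic HKC-8 and 0.0991 in normoxic RCC4. With each length choice the means of hypoxic HepG2 lie above the line and those of normoxic RCC4 and HKC-8 below it. For hypoxic HKC-8, hypoxic RCC4 and normoxic HepG2 the position against the line depends on the length choice. Their means are 1.00, 0.691 and 0.979 per kb of exon, and 1.98, 1.71 and 1.14 without division by length. With the longest coding transcript they are 0.961, 0.579 and 1.21.

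The subunits moved little. PDHA1, the E1-alpha subunit and the substrate of the kinases (chrX:19362011-19379836, plus strand, GRCh37), read 155, 169 and 158 CPM in normoxic and 140, 154 and 140 CPM in hypoxic HKC-8. RCC4 read 74.1, 76.1 and 75.2 CPM and then 69.4, 70.1 and 68.9 CPM, and HepG2 92.0, 84.7 and 101 CPM and then 82.9, 82.2 and 89.9 CPM. Only HepG2 had overlapping groups. The call was made in RCC4 (log2 fold change -0.11, SE 0.0404, edgeR adjusted p = 0.0302), and it was lost without RCC4 normoxia replicate 2 (edgeR adjusted p = 0.0776), hypoxia replicate 1 (0.0586) or hypoxia replicate 3 (0.0918), without the low-count filter (0.0501) and in 1 fit of all 18 samples (0.242). The log2 fold change stayed between -0.11 and -0.10 in these fits. In HKC-8 the log2 fold change was -0.15 (SE 0.0773, edgeR adjusted p = 0.202), which was called with the replicate block (-0.15, SE 0.0532, edgeR adjusted p = 0.0446). HepG2 gave -0.12 (SE 0.0692, edgeR adjusted p = 0.181).

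PDHB, the E1-beta subunit (chr3:58413357-58419584, minus strand, GRCh37), was not called in any line. Its means were 134 ± 4.28 and 131 ± 5.45 CPM in HKC-8, 86.7 ± 3.19 and 86.9 ± 3.19 CPM in RCC4 and 103 ± 6.74 and 104 ± 3.75 CPM in HepG2. The log2 fold changes were -0.02 (SE 0.0724), 0.01 (SE 0.0425) and 0.01 (SE 0.065).

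DLAT, the acetyltransferase core (chr11:111896132-111935128, plus strand, GRCh37), was the only subunit called lower in each line. It read 167, 161 and 152 CPM in normoxic and 128, 131 and 125 CPM in hypoxic HKC-8, 167, 160 and 167 CPM and then 151, 158 and 151 CPM in RCC4, and 116, 113 and 127 CPM and then 99.5, 100.0 and 106 CPM in HepG2. The groups did not overlap in any line. The log2 fold changes were -0.32 in HKC-8 (SE 0.072, edgeR adjusted p = 0.0166), -0.10 in RCC4 (SE 0.0362, edgeR adjusted p = 0.0253) and -0.22 in HepG2 (SE 0.0606, edgeR adjusted p = 0.0101). These calls were lost under some alternatives with little change in the fold. In HKC-8 the log2 fold change stayed between -0.32 and -0.29, while the edgeR adjusted p became 0.0876 without normoxia replicate 1, 0.0596 without normoxia replicate 2, 0.0716 without hypoxia replicate 1 and 0.0528 without hypoxia replicate 3. In RCC4 the edgeR adjusted p became 0.0693 and 0.0595 without normoxia replicates 1 and 3, 0.0818 and 0.0978 without hypoxia replicates 1 and 3, and 0.202 in 1 fit of all 18 samples, at log2 fold changes between -0.11 and -0.09. In HepG2 the edgeR adjusted p became 0.0545 and 0.0507 without hypoxia replicates 1 and 2, at -0.21 in both. RCC4 minus HKC-8 gave 0.20 (SE 0.0719, edgeR adjusted p = 0.0844) and was called with the replicate block (edgeR adjusted p = 0.0366), with DESeq2 (0.0299) and without HKC-8 normoxia replicate 3 (edgeR, 0.0338).

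PDHX, which holds DLD on the core (chr11:34937376-35042138, plus strand, GRCh37), was lower in HKC-8 alone. It read 63.7, 65.6 and 63.3 CPM in normoxic and 50.8, 52.4 and 51.9 CPM in hypoxic HKC-8, with no overlap (log2 fold change -0.31, SE 0.0699, edgeR adjusted p = 0.0161). The call was lost without HKC-8 normoxia replicate 1 (edgeR adjusted p = 0.0677), normoxia replicate 2 (0.0727) or hypoxia replicate 1 (0.0765), while the log2 fold change stayed between -0.32 and -0.29. RCC4 moved from 70.9 ± 1.83 to 72.8 ± 2.25 CPM and HepG2 from 83.2 ± 6.04 to 81.4 ± 1.24 CPM, both overlapping, with log2 fold changes of 0.04 (SE 0.0426) and -0.03 (SE 0.0633). The difference between the responses of RCC4 and HKC-8 was itself called (0.33, SE 0.0731, edgeR adjusted p = 0.00821). HepG2 minus HKC-8 gave 0.28 (SE 0.0931, edgeR adjusted p = 0.0756), which was called with the replicate block (edgeR adjusted p = 0.0251), with DESeq2 (0.0241), in 1 edgeR fit of all 18 samples (0.0239) and without HepG2 normoxia replicate 3 (edgeR, 0.0284).

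**Figure D4:**
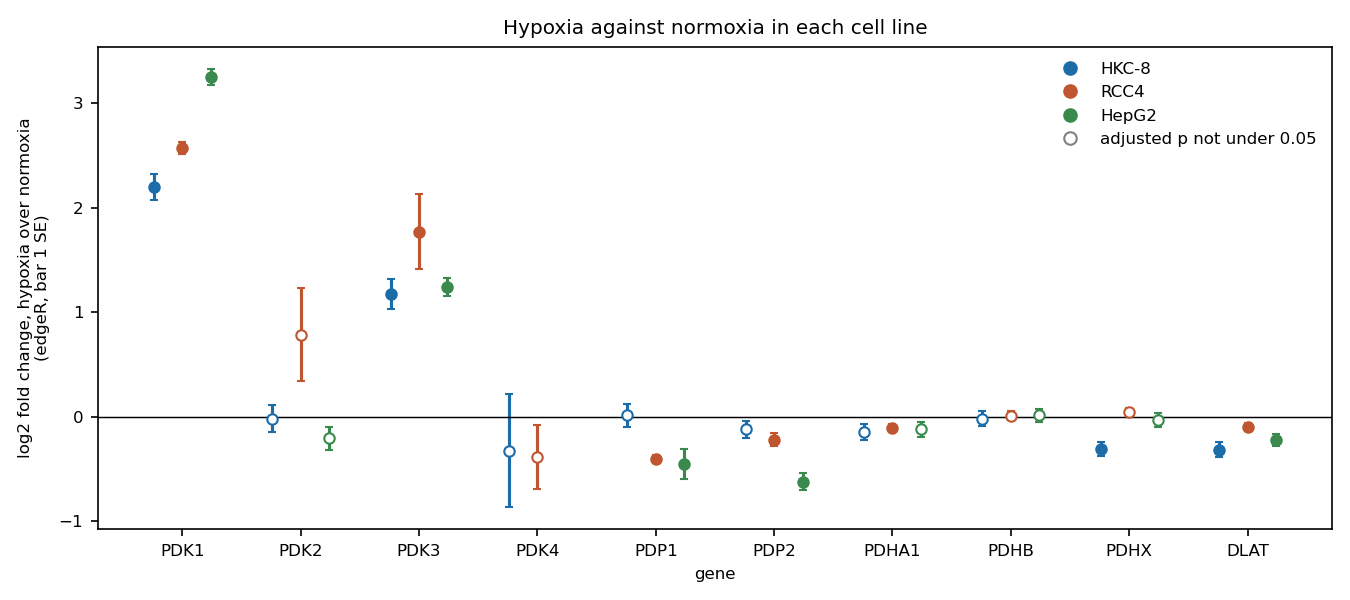
Log2 fold change, hypoxia over normoxia, of the 10 genes in each cell line from edgeR, with bars of 1 SE and filled points where the adjusted p was under 0.05. PDK1 (2.20 to 3.25) and PDK3 (1.17 to 1.77) lie well above 0 in each line, and all called phosphatase and subunit values lie between -0.62 and -0.10.

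Counted over the 10 genes, hypoxia gave 2 higher and 2 lower in HKC-8, where 11.2% of the 13536 genes tested were higher and 9.12% lower. It gave 2 higher and 4 lower in RCC4, where 25.9% of 12811 genes were higher and 24.2% lower. In HepG2 it gave 2 higher and 3 lower of 9 tested, where 19.9% of 13623 genes were higher and 19.2% lower. With backgrounds of this size, the number of calls does not set the 10 genes apart. The genes behind it were PDK1 and PDK3 among the higher in each line and DLAT among the lower in each line. The smaller background in HKC-8 went with a larger spread between its samples, the biological coefficient of variation being 0.135 there, 0.0437 in RCC4 and 0.0733 in HepG2. With the replicate block the HKC-8 calls went from 2757 to 5755 genes, 2836 of them higher, and the members called from 4 to 5 with PDHA1. Single libraries moved the HKC-8 count as well, to 1013 genes without normoxia replicate 1, 1455 without normoxia replicate 2, 1092 without hypoxia replicate 1 and 1712 without hypoxia replicate 3.

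Differences of response between lines were called for few of the 10. HepG2 minus HKC-8 gave 1 higher (PDK1) and 1 lower (PDP2), against 5.02% and 4.28% of 15046 genes. RCC4 minus HKC-8 gave 1 higher (PDHX) and 1 lower (PDP1), against 7.87% and 7.29% of 14203 genes. RCC4 minus HepG2 gave 1 higher (PDP2) and 2 lower (PDK1 and PDK4), against 10.9% and 11.7% of 14813 genes. The PDK4 value of -3.04 (SE 0.967, edgeR adjusted p = 0.0282) rested on HepG2 normoxic counts of 4, 0 and 0, depends on the prior count of the fit, and lost its call under 7 of 17 alternatives. These were 1 fit of all 18 samples (0.0573) and the fits without RCC4 normoxia replicate 3, RCC4 hypoxia replicate 2 or 3, HepG2 normoxia replicate 2 or 3 or HepG2 hypoxia replicate 3 (edgeR adjusted p from 0.0502 to 0.121). Leaving out HepG2 normoxia replicate 1, the library with the 4 counts, gave -6.64. For HepG2 minus HKC-8, PDK4 gave 3.02 (edgeR adjusted p = 0.122) and was called only without that library (7.12, edgeR adjusted p = 0.0472). The 1399 genes called for HepG2 minus HKC-8 became 911 without HepG2 hypoxia replicate 1. With the replicate block, 4 members and 3019 genes were called for HepG2 minus HKC-8, and 4 members and 4071 genes for RCC4 minus HKC-8.

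Normoxic levels of the 10 genes differed between lines about as often as those of other genes. HepG2 against HKC-8 gave 3 higher (PDK2, PDK3 and PDHX) and 5 lower of 9 tested, against 42.4% and 39.8% of 14427 genes. RCC4 against HKC-8 gave 3 higher (PDK4, PDP1 and PDHX) and 5 lower, against 41.3% and 43.6% of 13755 genes. RCC4 against HepG2 gave 4 higher and 6 lower, against 41.3% and 45.8% of 14241 genes. Of the subunits, PDHA1 showed the widest span, from 160 ± 7.29 CPM in HKC-8 to 75.1 ± 0.991 CPM in RCC4, a log2 difference of -1.09 (SE 0.0554, edgeR adjusted p = 5.12e-08). DLAT was level between RCC4 and HKC-8 (165 ± 4.02 and 160 ± 7.67 CPM, log2 difference 0.05, SE 0.0546, edgeR adjusted p = 0.384). PDHX in RCC4 exceeded that in HKC-8 by only 0.15 (SE 0.0545, edgeR adjusted p = 0.0251). That call was lost without the low-count filter (0.0504) and without HKC-8 normoxia replicate 1 (0.0679) or RCC4 normoxia replicate 1 (0.0527), 2 (0.0985) or 3 (0.0602). The ratio of PDK1 to its substrate PDHA1, both per kb of exon, was in normoxia 0.0797 ± 0.00636 for HepG2, 0.071 ± 0.0119 for HKC-8 and 0.147 ± 0.0108 for RCC4. In hypoxia they were 0.826 ± 0.119, 0.362 ± 0.0609 and 0.941 ± 0.0695, in the same order of lines. Without division by length the hypoxic ratios became 2.48, 1.09 and 2.82, so whether PDK1 lay below PDHA1 in hypoxia rested on that division.

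Exons of a gene on the other strand overlap 6 of the 10, namely PDK1 (PDK1-AS1), PDK2 (SAMD14), PDHA1 (MAP3K15), PDHB (ENSG00000272182), PDHX (APIP) and DLAT (PIH1D2). The study counted reads in the intersection-strict mode of HTSeq, and whether strand was used is not given in the sources used here. Whether reads in such overlaps were kept, dropped or given to the other gene therefore cannot be told.

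The genes whose profile over the 18 samples lay closest to each kinase were found by the root-mean-square difference of centred log2 CPM, among 10418 genes. For PDK1 they were LOX (0.374), ADM (0.409) and BNIP3L (0.455), where the median gene differed by 1.84. LOX read 31.5 and 143 CPM in HKC-8, 41.3 and 299 CPM in RCC4 and 22.7 and 357 CPM in HepG2, in normoxia and hypoxia. For PDK2 they were CCDC88C (0.496), ESRP2 (0.515) and LOC729732 (0.561), which like PDK2 were lowest in RCC4. PDK3 lay nearest to FLJ44313 (0.67), PLAC8 (0.694) and TET1 (0.722), and PDK4 to A4GALT (0.891), AGPAT2 (0.904) and CITED2 (0.957). The SD of PDK4 itself was 2.01, and its profile rests on few counts. In RCC4, FLJ44313 and LOC729732 also had few counts, at most 4 and 1 per sample.

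Genes around the 10 were listed by role. Of DLD, the phosphatase regulator PDPR and the testis form PDHA2, the last was not tested. PDPR was higher in each line, with log2 fold changes of 0.32, 0.10 and 0.20 in HKC-8, RCC4 and HepG2 (edgeR adjusted p = 0.0209, 0.0187 and 0.0259). DLD was lower in RCC4 (-0.11, edgeR adjusted p = 0.0156) and HepG2 (-0.20, edgeR adjusted p = 0.028). It was not called in HKC-8, where the median log2 fold change of PDPR and DLD was 0.0512. Of 9 genes that supply lipoyl and iron-sulphur cofactors, 1 was higher in HKC-8 (LIPT2, 1.12), 2 lower in RCC4 (BOLA3, -0.32, and GLRX5, -0.18), and 1 higher and 3 lower in HepG2, including IBA57 (0.47) and LIAS (-0.53). Their medians were -0.0866, -0.0081 and -0.19, beside 0.0036, -0.0018 and -0.0044 for all genes tested in HKC-8, RCC4 and HepG2. Of 4 genes of thiamine supply, 1 was lower of 3 tested in HKC-8 and 2 lower of 3 in RCC4. In HepG2 1 was higher and 1 lower of 4 tested. The medians of this list were -0.34, -0.33 and -0.13 in HKC-8, RCC4 and HepG2.

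Of 12 genes at the pyruvate branch point, 4 were higher and 1 lower of 11 tested in HKC-8, 3 and 3 of 11 in RCC4, and 4 and 3 of 10 in HepG2, with medians of -0.16, -0.0209 and -0.0473. LDHA, which turns pyruvate into lactate, was higher by 1.47, 1.77 and 1.76 on the log2 scale. The mitochondrial pyruvate carrier gene MPC1 was lower in HepG2 (-0.80). Of 9 genes of the sister dehydrogenase complexes, BCKDHA was higher in each line (0.92, 0.60 and 1.11), and BCKDK, the kinase of the branched-chain complex, was higher in RCC4 (0.27) and HepG2 (0.93). That list had 1 called gene in HKC-8, 5 higher and 2 lower in RCC4 and 2 higher and 2 lower in HepG2, with medians of -0.0066, 0.16 and 0.11. Of the genes of acetyl-CoA use, SLC25A1 was higher in HKC-8 (0.39) and lower in RCC4 (-0.15), and CS was lower in both (-0.34 and -0.15), while in HepG2 neither was called (edgeR adjusted p = 0.818 and 0.305). Among 12 transcription factors and coactivators known to act on PDK genes, 3 were higher and 1 lower of 10 tested in HKC-8, 6 and 5 of 12 in RCC4 and 5 and 2 of 11 in HepG2, with medians of -0.0135, 0.0449 and 0.06. Of all genes tested, 11.2% were higher and 9.12% lower in HKC-8, 25.9% and 24.2% in RCC4 and 19.9% and 19.2% in HepG2. HIF1A was lower in HKC-8 (-1.16, edgeR adjusted p = 3.6e-05) and RCC4 (-0.21, edgeR adjusted p = 7.08e-06). EPAS1 was higher in HKC-8 (1.23, edgeR adjusted p = 0.000366), RCC4 (0.26, edgeR adjusted p = 2.01e-06) and HepG2 (0.39, edgeR adjusted p = 0.00108). NR3C1 was higher in RCC4 (0.75) and PPARG in HepG2 (1.06).

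**Figure D5:**
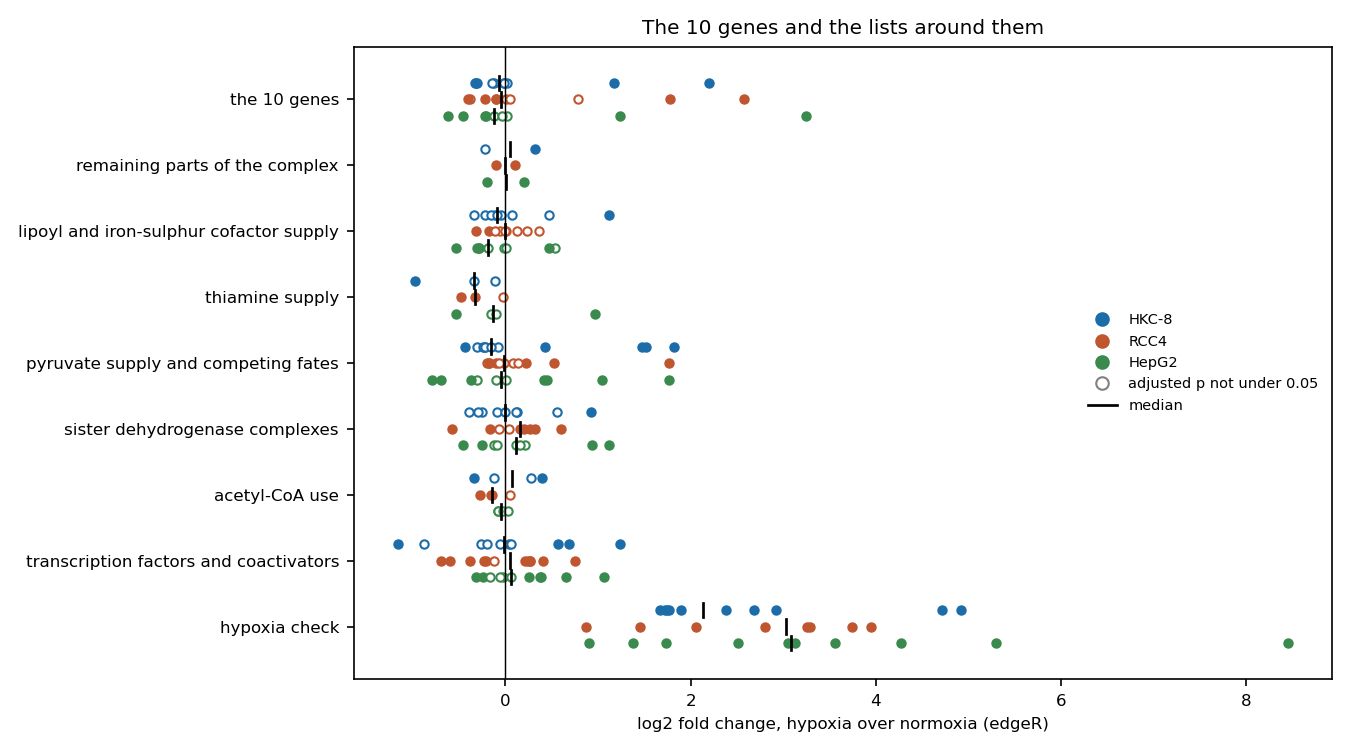
Log2 fold change, hypoxia over normoxia, of each tested gene of the 10 and of 8 lists around them, with 3 rows per list for HKC-8, RCC4 and HepG2, filled points where the edgeR adjusted p was under 0.05 and black ticks for medians. The hypoxia genes have medians from 2.14 to 3.09, and the medians of the 10 genes lie at -0.0716, -0.0448 and -0.12.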

How the data were processed

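Per the labels and the study's methods, the authors trimmed reads with Trim Galore 0.3.3, aligned them to GRCh37 with TopHat 2.0.8b and Bowtie 1.0.0, dropped reads without a unique position with SAMtools 0.1.19 and counted reads per UCSC gene with HTSeq 0.5.4p3. The deposited values are raw counts, 1 column per sample. The submitters' notes name DESeq2 without a version. Libraries of HKC-8 were spread over lanes.

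The counts of all 23106 genes were analysed in R 4.3.3 with edgeR 4.0.16 (filterByExpr, TMM, quasi-likelihood test), fitted on the samples of the cell line or lines compared. DESeq2 1.42.0 was an alternative, as were median-of-ratios factors, other count filters, 1 fit of 18 samples, a replicate block and leaving out each library. The steps were tested on simulated data. Exon lengths came from GENCODE on GRCh37, in which 20098 of the symbols were found. Replicates were compared pairwise, and none agreed within sampling noise.

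The replicate numbers come from the sample titles. In HKC-8, deviations from the group means correlated across genes between normoxic and hypoxic samples of the same number (r = 0.109, 0.453 and 0.447). The numbers were therefore taken to pair them, and blocked values stand beside results that they change. For differences of response between lines, the block used the numbers of both lines. It thus also paired RCC4 or HepG2 samples, which were not taken as paired.

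All 10 genes are named in each line. From each list, at most the 3 called genes of largest change per line could be named, a gene named in 1 line could be given in the others, and for each kinase the 3 nearest genes. The genes and lists were chosen with earlier results of these data known. Some genes of these lists are not reported here.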

Additional observations from a re-analysis of the deposited data

Results flagged for a closer look

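Differences of the hypoxic response between cell lines were tested as the interaction of cell line and oxygen in edgeR. Of all genes tested, 5.02% were called higher and 4.28% lower for HepG2 minus HKC-8, 7.87% and 7.29% for RCC4 minus HKC-8, and 10.9% and 11.7% for RCC4 minus HepG2. PDK1 responded more in HepG2 than in HKC-8 (log2 difference 1.05, edgeR adjusted p = 0.000454) and less in RCC4 than in HepG2 (-0.69, edgeR adjusted p = 9.55e-05), and both calls held without any single library. PDP2 gave -0.50 for HepG2 minus HKC-8 (edgeR adjusted p = 0.026), a call lost under 7 of 18 alternatives, and RCC4 minus HepG2 gave 0.39 (edgeR adjusted p = 0.014). PDP1 gave -0.44 for RCC4 minus HKC-8 (edgeR adjusted p = 0.0332), a call lost under 11 of 18 alternatives. PDHX gave 0.33 for RCC4 minus HKC-8 (edgeR adjusted p = 0.00821). PDK4 gave -3.04 for RCC4 minus HepG2 (edgeR adjusted p = 0.0282), a fitted value set by 4, 0 and 0 counts in normoxic HepG2 and no bound on a fold, and its call was lost under 7 of 17 alternatives. Without the HepG2 library of 4 counts it was -6.64. For these comparisons with RCC4, the labelled oxygen level, the duration and the VHL transgene cannot be told apart from the line. For HepG2 minus HKC-8 the same holds for the oxygen level, if the 0.1% in the titles of hypoxic HKC-8 is right.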

How the results depend on the processing

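PDK1 and PDK3 stayed called higher in hypoxia in each line under every alternative run, with log2 fold changes of 2.09 to 2.29, 2.51 to 2.62 and 3.19 to 3.33 for PDK1 in HKC-8, RCC4 and HepG2, and 1.04 to 1.3, 1.46 to 2.37 and 1.15 to 1.29 for PDK3. Low counts limit PDK4 in every line and PDK2 and PDK3 in RCC4, whose libraries were about as deep as those of HepG2. For the changes listed here, the cause was not tested. Where 1 library was left out, a trait of that library and the loss of a sample cannot be told apart.

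In 1 fit of all 18 samples, the genes called numbered 5013 in HKC-8, 3286 in RCC4, 2219 for HepG2 minus HKC-8 and 1886 for RCC4 minus HepG2, and the members called 3 in RCC4 and 1 for RCC4 minus HKC-8. With the replicate block, 5755 genes were called in HKC-8, 3019 for HepG2 minus HKC-8 and 4071 for RCC4 minus HKC-8. There were 4 members called in each of the latter comparisons, where the block also paired the HepG2 or RCC4 samples by number. The calls the block changed were PDHA1 in HKC-8 (-0.15), PDP1 (-0.44) and PDHX (0.28) for HepG2 minus HKC-8, and PDK1 (0.35) and DLAT (0.20) for RCC4 minus HKC-8, and it changed no other call of the 10 genes. Same-numbered samples of RCC4 (r = -0.0103, 0.0333 and 0.0147) and HepG2 (r = 0.165, 0.0617 and 0.184) were not taken as paired. A line was taken as paired only if each r passed a fixed cutoff, which 0.0617 in HepG2 did not. In HepG2, however, 3 normoxic and 3 hypoxic samples correlated best with their own number. The same counts were 2 and 3 in HKC-8 and 1 and 2 in RCC4.

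The share of PDK1 without division by length was 58.87 and 82.81% in HKC-8, 94.62 and 98.57% in RCC4 and 33.81 and 77.13% in HepG2, in normoxia and hypoxia. With the longest coding transcript it was 30.4 and 64.13% in HKC-8, 83.75% in normoxic RCC4 and 14.5 and 59.7% in HepG2. The ratio of kinases to phosphatases, under alternatives chosen after seeing the data, became 0.581 and 1.978 in HKC-8, 0.2295 and 1.709 in RCC4 and 7.077 in hypoxic HepG2 without division by length. With the longest coding transcript it became 0.4292 in normoxic HKC-8, 0.08512 and 0.5788 in RCC4 and 1.207 in normoxic HepG2. For PDHA1, RCC4 minus HepG2 turned to -0.0055 with DESeq2, -0.0055 with median-of-ratios factors and -0.008 with at least 10 counts in every sample. PDP2 in normoxic HepG2 against HKC-8 turned to -0.0276 without the low-count filter.

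Leaving out 1 library at a time gave 1013 to 3283 genes called in HKC-8 and 911 to 1890 for HepG2 minus HKC-8. The members called ranged from 2 to 4 in HKC-8, 4 to 7 in RCC4, 3 to 5 in HepG2, 1 to 2 for HepG2 minus HKC-8, 1 to 3 for RCC4 minus HKC-8 and 2 to 5 for RCC4 minus HepG2. Values close to 0 changed sign. For PDHA1 the log2 ranges were -0.0331 to 0.096 (HepG2 minus HKC-8), -0.0545 to 0.0614 (RCC4 minus HepG2) and -0.0089 to 0.0842 (RCC4 minus HKC-8). For PDHB they were -0.0169 to 0.0642, -0.0463 to 0.048 and -0.0125 to 0.0525 in the same order, and within lines -0.0468 to 0.0527 (HepG2), -0.0447 to 0.0142 (HKC-8) and -0.0223 to 0.0329 (RCC4). PDHX ranged from -0.0785 to 0.0208 in HepG2, PDK2 from -0.1118 to 0.1239 in HKC-8, PDK4 from -0.7987 to 0.0459 in HKC-8 and PDP1 from -0.0806 to 0.117 in HKC-8. Among differences of response, PDK3 ranged from -0.0918 to 0.1971 (HepG2 minus HKC-8), PDK4 from -0.4574 to 0.4116 (RCC4 minus HKC-8) and PDP1 from -0.1229 to 0.1658 (RCC4 minus HepG2). Among normoxic levels, PDK1 ranged from -0.1336 to 0.0479 (RCC4 against HKC-8) and PDP2 from -0.0772 to 0.0893 (HepG2 against HKC-8).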
